A study of Mus musculus with 2 samples.

Results

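A set of 40 genes of the cell division cycle, 17 expressed mainly in S phase (DNA replication) and 23 mainly in G2 phase and mitosis (G2/M), was followed through the cell types of the mouse spleen. The members were picked by gene symbol from the 26124 genes of the count tables and not by their values, though with earlier results of these data known. All 40 were found. The cells came from 1 control mouse called wild-type and 1 Berkeley mouse, a model of sickle cell disease (SCD) in which chronic hemolysis exposes the spleen to heme. Both untreated mice were 12 to 16 weeks old and homozygous for the targeted alpha globin allele Hbatm1Paz. The wild-type mouse was heterozygous for the targeted beta globin allele Hbbtm1Tow and hemizygous for the human globin transgene Tg(HBA-HBBs)41Paz, and served as the non-sickling control. The SCD mouse was homozygous for Hbbtm1Tow and for the transgene, so its red cells sickle. Red cells were lysed, dendritic cells (DCs) were enriched by removing other cells with magnetic beads, and single cells were sequenced in droplets at the 3′ ends of transcripts. The values are raw counts of unique molecular identifiers (UMIs), each marking 1 captured transcript, so a gene's length does not scale its count.

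In all, 10845 wild-type cells with 97880318 UMIs and 13447 SCD cells with 189688217 UMIs were deposited. Where values come in pairs, the wild-type library is given first. Filters on detected genes and on mitochondrial and ribosomal counts left 9718 and 11855 cells, with medians of 5156 and 9065 UMIs per cell. No upper limit on genes per cell was set, and 88 cell barcodes were shared by the libraries. Each group had 1 animal, so there was neither replicate nor test, and every interval in brackets is a 95% interval that covers counting error only. Differences between the animals, the libraries and the genotypes cannot be told apart. Beta globin went with the labels: in erythroid-like cells, Hbb-bs was at 8890 CPM (counts per 1000000 UMIs of a class or library) in wild-type and at 45 CPM in SCD cells. Alpha globin went against the allele labelled in both mice, with Hba-a1 at 4587 and 4014 CPM and Hba-a2 at 203 and 169 CPM in these cells. Whether the counted 3′ ends lie within the targeted part, or come from the transgene, was not tested, and wild-type and SCD mean here the libraries so labelled. Cells were clustered without cell cycle genes and called by their markers. These names were rebuilt here and are not those of the study. In spite of the enrichment, conventional DC-like cells were only 24.3% of wild-type and 4.63% of SCD cells, and plasmacytoid DC-like (pDC-like) cells 7.71% and 4.37%. Of the 35 clusters, 10 stayed unnamed and held 7.33% of wild-type and 14.3% of SCD cells. Of these, 2 clusters with 1.70% and 2.11% stayed unnamed only because of score thresholds that were set after the clusters had been seen.

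Before a cell divides it copies its DNA in S phase, when the Mcm2 to Mcm7 proteins, loaded by Cdc6 and joined by Cdc45 and the GINS subunit Gins2, unwind the double helix as the replicative helicase. The sliding clamp Pcna holds the polymerases on the template, and Rrm1, Rrm2, Tyms and Dut supply or protect the pool of DNA building blocks. In G2 phase and mitosis the cyclins and the kinases Cdk1, Plk1, Aurka and Aurkb drive chromosome condensation and spindle assembly, centromere and kinetochore proteins attach chromosomes to microtubules, and the anaphase-promoting complex with Cdc20 and Ube2c ends mitosis by marking cyclins for destruction. In the spleen of anemic mice, erythroid precursors and myeloid precursors divide outside the bone marrow.

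The promoters of S and G2/M members differed in how often they held some sequence motifs and shared another. Sequences upstream of the transcription start were taken from RefSeq (GRCm38.p6) and matched 35 of the 40 members, with 38 start sites. Windows from 250 bases before to 50 after the start were searched on both strands for the letters of an E2F site (TTTGGCGC, TTTCCCGC, TTTGCCGC or TTTCGCGC), of the cell cycle homology region (CHR; TTTGAA or TTCGAA) and of a CCAAT box (CCAAT). Letters of an E2F site were in 7 of 17 windows of S members (41.2%), in 1 of 21 windows of G2/M members (4.76%) and in 2.26% of all 32851 promoter windows. The CHR letters were in 3 of 17 windows of S members (17.6%), in 17 of 21 windows of G2/M members (81.0%) and in 19.2% of all windows. From 50 bases before the start to the end of the window they were in 76.2% of the windows of G2/M members and in 5.31% of all windows. CCAAT was in 82.4% of the S and 90.5% of the G2/M windows, against 37.4% of all. A match describes these letters only and is not a shown site. The 150 bases before the start of 2 S members and 3 G2/M members are printed 5′ to 3′ on the gene's strand, as examples picked after the matches were seen, each with letters of its own list's motif in the stretch. Capitals mark the E2F letters in Mcm6 and Mcm5, and the CHR and CCAAT letters on either strand in Kif11, Cdc20 and Top2a. In Mcm5 an overlapping match is cut by the edge of the stretch, and in Mcm6 2 overlapping matches form 1 run. The Mcm6 stretch lies at chr1:128359706-128359855 on the minus strand and that of Mcm5 at chr8:75109359-75109508 on the plus strand. The Kif11 stretch lies at chr19:37376232-37376381 on the plus strand, that of Cdc20 at chr4:118437344-118437493 and that of Top2a at chr11:99024190-99024339, both on the minus strand.
Mcm6: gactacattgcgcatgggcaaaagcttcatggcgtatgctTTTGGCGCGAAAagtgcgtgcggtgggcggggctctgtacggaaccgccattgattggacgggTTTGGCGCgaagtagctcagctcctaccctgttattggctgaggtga
Mcm5: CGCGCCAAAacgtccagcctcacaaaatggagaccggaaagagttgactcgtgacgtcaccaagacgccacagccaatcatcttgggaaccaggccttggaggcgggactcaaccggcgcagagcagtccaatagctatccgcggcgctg
Kif11: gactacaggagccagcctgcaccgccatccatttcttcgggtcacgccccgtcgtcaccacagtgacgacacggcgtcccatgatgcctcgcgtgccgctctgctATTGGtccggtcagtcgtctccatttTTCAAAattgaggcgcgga
Cdc20: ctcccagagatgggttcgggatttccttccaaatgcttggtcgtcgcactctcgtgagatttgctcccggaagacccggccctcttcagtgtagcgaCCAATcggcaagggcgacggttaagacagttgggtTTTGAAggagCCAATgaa
Top2a: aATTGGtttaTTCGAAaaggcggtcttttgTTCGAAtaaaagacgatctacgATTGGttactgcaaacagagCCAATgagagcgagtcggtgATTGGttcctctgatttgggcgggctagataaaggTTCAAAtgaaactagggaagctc

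To count dividing cells at equal depth, every cell was thinned to 1000 UMIs, and a cell was called dividing when at least 4 of these were from the 40 members. By this count 587 of 9560 wild-type cells were dividing (6.14%, 5.67 to 6.64) and 2437 of 11787 SCD cells (20.7%, 19.9 to 21.4). The ratio was 3.37 (3.09 to 3.67), and the shares without thinning, at members making up at least 0.4% of a cell's UMIs, were 5.86% and 21.2%. A further 146 wild-type and 337 SCD cells were just under the limit with 3 UMIs, and 77 and 254 were just at it with 4. Cells under 1000 UMIs, 158 and 68, were left out. Mature neutrophil-like cells, which have left the cell cycle, gave the background: 13 of 3765 wild-type cells (0.345%, 0.184 to 0.590) and 6 of 2507 SCD cells (0.239%, 0.0879 to 0.520), at median depths of 2342 and 3297 UMIs. Most of this background came from 1 member, Kif23, without which the shares were 0.0797% and 0.0798%. In wild-type dividing cells, Mki67, a protein that coats mitotic chromosomes, had a UMI in 40.9% and in other cells in 1%, and in SCD cells in 47.2% and 2.28%. For Pclaf, a partner of the clamp Pcna, these shares were 45.8% and 0.524% in wild-type and 46.0% and 2.07% in SCD cells. Since the members define dividing cells, these shares describe the call and do not support it.

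The dividing cells were spread over different cell types in the libraries. Of the wild-type dividing cells, 35.6% were conventional DC-like, 28.8% erythroid-like, 10.2% immature neutrophil-like and 10.1% classical monocyte-like. Of the SCD dividing cells, 24.0% were erythroid-like, 22.9% immature neutrophil-like, 22.4% classical monocyte-like and 14.0% promyelocyte-like, and 2.46% were conventional DC-like. Unnamed clusters held 6.30% and 8.12% of them. The order of the classes depends on the filters. Without the mitochondrial and ribosomal filters, 75% of 604 wild-type erythroid-like cells and 8.16% of 2685 conventional DC-like cells were dividing, so the first outnumbered the second. With the limit of 5000 genes these were 34.8% of 89 and 7.61% of 2287 cells. In the SCD library that limit gave 57.4% of 122 erythroid-like and 13.1% of 4107 immature neutrophil-like cells.

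Within the named classes the difference in the share of dividing cells between the libraries, in percentage points, was largest in classical monocyte-like cells. In 2 alternatives it was larger in erythroid-like cells. With the limit of 5000 genes their shares were 34.8% and 57.4%, against 5.65% and 24.7% in classical monocyte-like cells. With cycle genes kept in the clustering they were 67.9% and 85.2%, against 1.07% and 8.71%. The classical monocyte-like class then held only 467 and 999 cells of at least 1000 UMIs. Clusters led by Mpo, Ctsg and Prtn3 that scored best as classical monocyte stayed unnamed. With the settings used here, the share was 67.9% of erythroid-like cells in the wild-type (61.7 to 73.6, 169 of 249) and 85.2% in the SCD library (82.3 to 87.7, 586 of 688), a ratio of 1.25 (1.15 to 1.37) at near-equal median depths of 71987 and 74894 UMIs. Summed immature neutrophil markers were at 396 and 2662 CPM in this class (8 and 10 of 12 above 10 CPM, none at 0), and without the cells at or over 5000 CPM of them the ratio was 1.27 (1.17 to 1.39). Promyelocyte-like cells, of which the wild-type library held 28, were dividing in 71.4% (51.3 to 86.8) and 78.0% (73.9 to 81.8). Immature neutrophil-like cells were dividing in 14.6% (11.3 to 18.3) and 16.8% (15.6 to 18.1), and the interval of the ratio, 0.903 to 1.48, held 1. Of these dividing cells 55 of 60 and 540 of 559 lay in 1 of the 3 immature neutrophil-like clusters, led by Fcnb, Chil3 and Camp, in which 59.8% and 62.0% of the cells were dividing. In the largest immature neutrophil-like cluster, led by Ltf and Ly6g, the shares were 0.344% and 0.214%, as low as in mature neutrophil-like cells. An unnamed cluster led by Retnlg, Mmp8 and Mmp9, with markers of both neutrophil stages, had 0 of 118 and 0 of 1174 dividing cells, which allows shares of up to 2.54% and 0.256% at 3 cells of the total, or of up to 3.08% and 0.314% by the exact interval.

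Classical monocyte-like cells were dividing in 8.89% of the wild-type cells (6.83 to 11.3, 59 of 664) and 34.5% of the SCD cells (32.1 to 36.9, 547 of 1587), 3.88 times as often (3.01 to 4.99). The class was made up of 3 clusters in different proportions. The cluster led by F13a1, Fn1 and Itga1 had dividing shares of 83.3% (71.5 to 91.7) and 78.9% (75.3 to 82.1), whose intervals overlap, and it held 60 of 667 wild-type and 589 of 1590 SCD class members. The cluster led by Vcan, Fn1 and Cx3cr1, with 566 and 841 cells, was dividing in 0.355% (0.0431 to 1.28) and 2.97% (1.93 to 4.36). The difference in the class thus went with the number of cells in the dividing cluster more than with the share inside it. The smallest cluster, led by Ighg3 and Saa3, had shares of 17.1% and 37.1%. Its summed immature neutrophil markers were at 32511 and 43658 CPM, and 33 of its 41 wild-type and 70 of its 160 SCD cells were called doublets, among them 11 of its 59 dividing SCD cells. Over the whole class the ratio was 3.83 (2.97 to 4.94) without called doublets and 4.20 (3.19 to 5.53) without cells high in neutrophil markers. With cycle genes kept in the clustering it was 8.13 (3.32 to 19.9), from shares of 1.07% and 8.71% of 467 and 999 cells. Clusters led by Mpo, Ctsg and Prtn3 that scored best as classical monocyte stayed unnamed there, with 39 and 439 and with 42 and 411 cells. This ratio is thus of fewer cells and not of the same class.

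Among DCs (conventional DCs of type 1, cDC1, which cross-present antigen to CD8+ T cells, and of type 2, cDC2, which mainly prime CD4+ T cells), 21.5% of the wild-type cDC1-like cells were dividing (16.2 to 27.7, 45 of 209) and 16.2% of the SCD cells (11.7 to 21.7, 37 of 228), with a ratio interval of 0.509 to 1.12. For cDC2-like cells the shares were 7.59% (108 of 1423) and 7.58% (16 of 211), with a ratio of 0.999 (0.603 to 1.66). Over all conventional DC-like cells the shares were 8.88% and 11.1%, a ratio of 1.25 (0.95 to 1.63) whose interval held 1. None of the summed classes alone had a ratio above 1, at 0.754 in cDC1-like, 0.999 in cDC2-like and 0.875 (0.41 to 1.87) in mature DC-like cells. The sum holds them in different proportions, with cDC1-like cells 210 of 2364 wild-type and 230 of 549 SCD cells. The interval of the summed ratio lay above 1 at 2000 UMIs (1.51, 1.13 to 2.02) and with cycle genes kept in the clustering (1.42, 1.10 to 1.83). The same was so at 3 member UMIs (1.47, 1.17 to 1.85) and at resolution 2 (1.48, 1.11 to 1.98), while the other alternatives held 1. Mature DC-like cells were dividing in 7.77% and 6.80%, most of them in 1 cluster of 134 and 33 cells led by Ccl5 and Fscn1 with a low depth, where the shares were 36.4% and 20%. At the finer resolution 2 this cluster fell apart into a mature DC-like one, with 0 of 65 and 1 of 17 cells dividing, and an unnamed one with 47 of 64 and 5 of 13. The unnamed one was led by Ppp1r14a and Dtx1, which are also among the 10 leading genes of the cDC2-like cluster, so these dividing cells are mature DC-like only by the coarser clustering. In pDC-like cells the shares were 0.935% (7 of 749) and 4.06% (21 of 517), a ratio of 4.35 (1.86 to 10.1), which came mostly from 1 small cluster. In the main pDC-like cluster they were 0.605% (4 of 661) and 1.77% (8 of 453), and in the small one 1.85% (1 of 54) and 21.0% (13 of 62). The small cluster held immature neutrophil markers at 14265 and 56603 CPM against 168 and 990 CPM in the main one, and 49 of its 54 wild-type and 43 of its 62 SCD cells were called doublets, among them 5 of its 13 dividing SCD cells. Over the whole class the ratio was 3.24 (1.34 to 7.82) without called doublets, and 1.87 (0.634 to 5.54) without cells high in neutrophil markers, an interval that holds 1. Other alternatives raised it, to 11.6 (6.29 to 21.4) with the limit of 5000 genes and 12 (6.83 to 21) without the mitochondrial and ribosomal filters. With cycle genes kept in the clustering it was 17.9 (7.26 to 44.2). In each of these alternatives the class also held a cluster with Bcl2 and Ly6d among its 10 leading genes. It had 65 and 160 cells with the gene limit, 67 and 185 without the filters and 92 and 201 with cycle genes kept. The cluster led by Bcl2 and Ly6d with the settings used here stayed unnamed, so these ratios are not of the same class. B cell-like cells, led by the early B cell genes Vpreb1 and Igll1, were dividing in 33.3% of 21 wild-type and 37.5% of 301 SCD cells, nonclassical monocyte-like cells in 1 of 430 and 1 of 55, and red pulp macrophage-like cells in 2.55% and 3.68%.

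**Figure D1:**
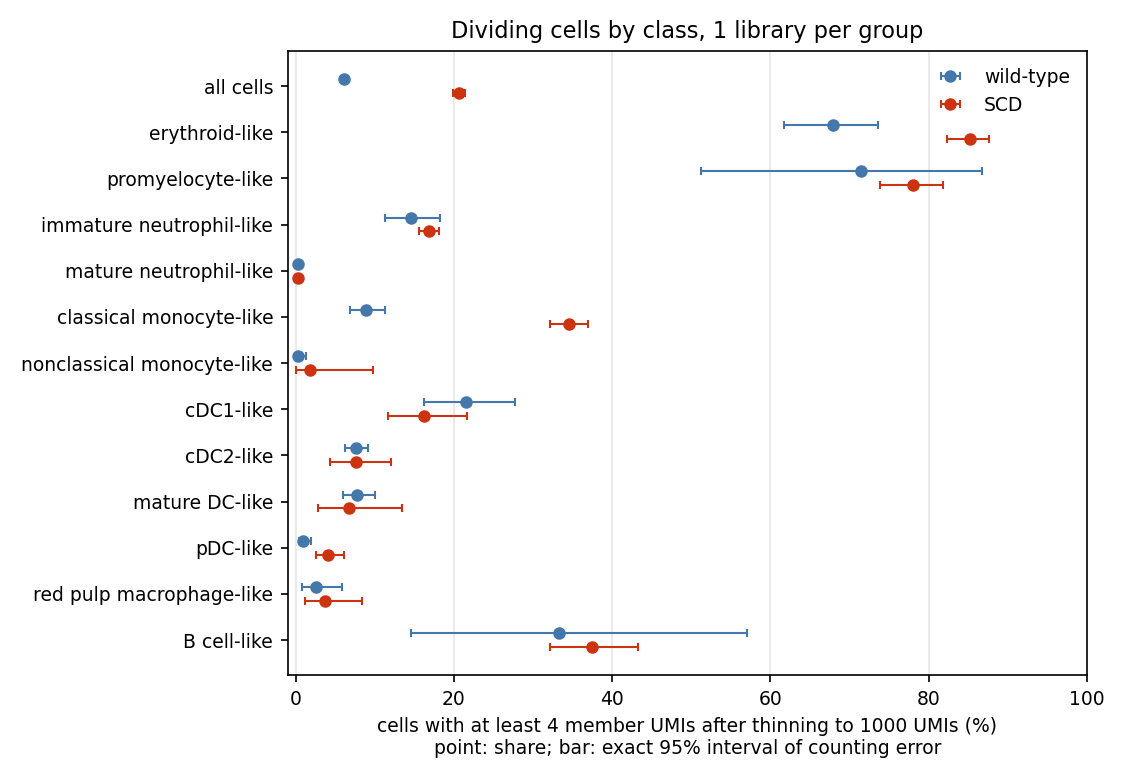
Share of dividing cells in each cell class (x axis, percent of cells with at least 1000 UMIs) for the wild-type (blue) and the SCD library (red), 1 library each; bars are exact 95% intervals of counting error. Erythroid-like and promyelocyte-like cells lie above 60% in both libraries, mature neutrophil-like cells below 1%, and classical monocyte-like cells at 8.89% and 34.5%.

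Summed over all cells of a library, members of both lists were higher in the SCD library, and G2/M members more so than S members. The 17 S members together made up 1211 and 2081 CPM, a ratio of 1.72 (1.71 to 1.73), and the 23 G2/M members 1280 and 2744 CPM, a ratio of 2.14 (2.13 to 2.16). In such sums a difference in cell types and a difference in RNA per cell cannot be told apart. All 40 members passed the minimum level (at least 20 UMIs over both libraries and a mean of 10 CPM), and 17 of them, 2 S members and 15 G2/M members, were at least 2-fold higher in the SCD library on the log2 scale with a pseudocount of 5 CPM. Of all 8251 genes tested, 1.38% were that much higher and 8.90% that much lower. The median log2 ratio was 0.97 over the members and -0.15 over all genes. Scaling by the median CPM ratio of genes with at least 20 UMIs in each library, with no pseudocount, would add 0.30 to each log2 ratio.

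By role, the ratio in the whole libraries was 1.66 for the 9 helicase genes, 1.69 for the clamp and chromatin genes (Pcna, Pclaf, Uhrf1 and Slbp), 1.81 for nucleotide supply, 2.04 for Mki67 and Top2a, 2.15 for kinetochore and centromere genes, 2.37 for cyclins and kinases, 1.93 for spindle and cytokinesis genes and 2.46 for Ube2c and Cdc20. Counting intervals were at most 0.10 wide. Among S members Pclaf had the largest ratio, at 131 and 318 CPM (log2 1.25), followed by Rrm2, the regulated subunit of ribonucleotide reductase, at 56.1 and 135 CPM (log2 1.20). The lowest were Pcna at 168 and 227 CPM (log2 0.43) and Slbp, the binding protein of histone mRNA stem loops, at 115 and 158 CPM (log2 0.45). Among G2/M members Cdc20 went from 28.2 to 80.3 CPM (log2 1.36) and Ccnb2, a mitotic cyclin, from 38.5 to 99.5 CPM (log2 1.27). The lowest of all members was Kif23, a kinesin of the central spindle, at 57.2 and 59.0 CPM (log2 0.04).

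Across cell types, nearly all members were highest in B cell-like or erythroid-like cells. In the SCD library 27 members were highest in B cell-like and 13 in erythroid-like cells. In the wild-type library 30 were highest in B cell-like cells (21 cells), 9 in erythroid-like cells, and Kif23 in mature neutrophil-like cells. None was highest in promyelocyte-like cells, although 71.4% and 78.0% of these were dividing, against 33.3% and 37.5% of B cell-like cells. Dut, which removes dUTP from the nucleotide pool, was highest in erythroid-like cells at 787 and 868 CPM, and made up 22.2% of their S member UMIs in both. Top2a, the topoisomerase that untangles replicated chromosomes, was highest in B cell-like cells at 1413 and 1002 CPM and at 4.97 and 14.0 CPM in mature neutrophil-like cells. Cenpa, the histone variant that marks centromeres, was highest in erythroid-like cells at 389 and 414 CPM. In immature neutrophil-like and classical monocyte-like cells the S list was led by Pclaf, with 27.5% and 22.6% of its UMIs in the wild-type library.

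The balance of S and G2/M members differed between cell types. S members made up 51.5% of member UMIs in wild-type erythroid-like cells (51.2 to 51.8) and 50.9% in SCD ones (50.8 to 51.1). In immature neutrophil-like cells they made up 30.6% and 29.1%, and in classical monocyte-like cells 37.0% and 32.7%. Among dividing cells alone the order was the same, at 51.0% and 50.7% in erythroid-like, 32.2% and 31.2% in classical monocyte-like and 29.6% and 26.5% in immature neutrophil-like cells. Called cell by cell at 1000 UMIs, 28.4% and 19.6% of the dividing erythroid-like cells had at most 1/3 S members among their member UMIs (here called G2/M-leaning), against 60% and 63.9% of the dividing immature neutrophil-like cells and 52.5% and 56.5% of the dividing classical monocyte-like cells. In the erythroid-like class the G2/M-leaning share was lower in the SCD library, with a ratio of 0.691 (0.517 to 0.923). In the 2 myeloid classes the intervals of the ratio, 0.858 to 1.32 and 0.834 to 1.39, held 1.

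**Figure D2:**
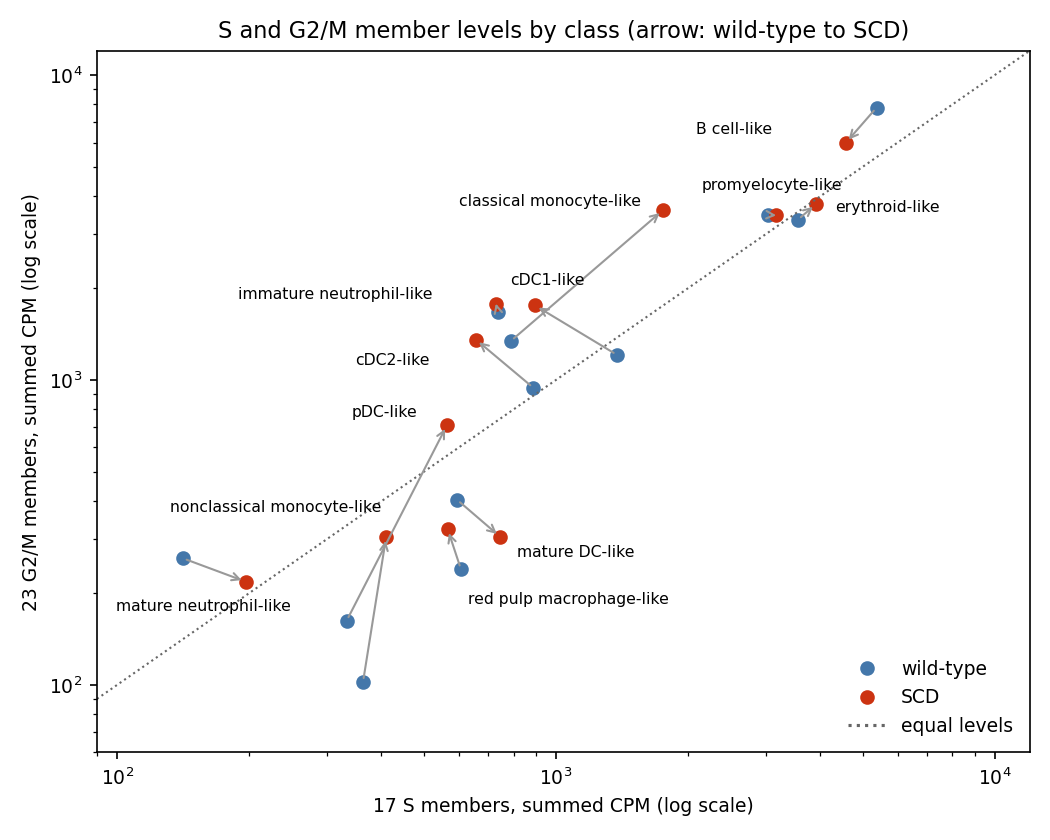
Summed level of the 17 S members (x axis, CPM, log scale) against that of the 23 G2/M members (y axis, CPM, log scale) in each cell class; arrows run from the wild-type (blue) to the SCD library (red) and the dotted line marks equal levels. Erythroid-like cells stay near the line, classical monocyte-like cells move up along both axes, and cDC1-like and cDC2-like cells move to fewer S and more G2/M counts.

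In erythroid-like cells the members were at nearly equal levels in the libraries when cells over 5000 genes were kept. The S members were at 3552 and 3911 CPM, a ratio of 1.10, and the G2/M members at 3347 and 3769 CPM, a ratio of 1.13. None of the 40 members was 2-fold higher or lower, where 0.435% of all 7357 genes tested were higher and 0.449% lower. With the limit of 5000 genes from the study and new clusters, which leaves 89 and 122 erythroid-like cells of at least 1000 UMIs, 39 members were at least 2-fold higher, and the S share of member UMIs was higher in the SCD library by 8.18 percentage points. The share of all genes that were 2-fold higher was not counted under this limit. Without this limit the median log2 ratio was 0.16 over the members and 0.00 over all genes. The counting interval of the ratio lay above 1 for 28 members, below 1 for 2 and held 1 for 10. Over all genes such intervals were not counted. The log2 ratio was above 0 for 36 of the 40 members and for 3713 of all 7357 genes. The largest were Cdc20 at 82.2 and 127 CPM (log2 0.60), Rrm2 at 173 and 246 CPM (log2 0.50) and Aurka, the kinase of spindle poles, at 46.9 and 63.8 CPM (log2 0.41). The smallest were Nusap1, a protein that bundles spindle microtubules, at 68.9 and 61.4 CPM (log2 -0.16), Kif11, the kinesin that pushes spindle poles apart, at 101 and 95.5 CPM (log2 -0.07) and Rrm1 at 240 and 231 CPM (log2 -0.06). The cyclin and kinase genes were highest by role, with a ratio of 1.25 (1.22 to 1.28).

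The erythroid-like clusters differed. In the largest, led by Car1 and Klf1, 85.5% and 94.3% of the cells were dividing, with S members at 3706 and 3946 CPM. In a cluster with the late genes Hbb-bs, Slc4a1 and Alas2, 10.3% of 58 wild-type cells (3.89 to 21.2) and 37.6% of 85 SCD cells (27.4 to 48.8) were dividing. Its S members were at 397 and 5743 CPM, a ratio of 14.4 (12.5 to 16.8), and its G2/M members at 1710 and 7322 CPM, a ratio of 4.28. Erythroid markers were alike in it, at 13814 and 15876 CPM over 14 markers, but immature neutrophil markers were at 2374 and 13733 CPM, with 10 and 12 of 12 markers above 10 CPM and 1 and 0 at 0. Their part in this difference was not tested. A limit of 5000 genes per cell, which the study's methods use, would remove 84.6% and 88.9% of the dividing erythroid-like cells.

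Immature neutrophil-like cells likewise held members at near-equal levels, with S members at 737 and 729 CPM (ratio 0.989, 0.957 to 1.02) and G2/M members at 1674 and 1779 CPM (ratio 1.06, 1.04 to 1.09). Of the 40 members 38 passed the minimum level and none of them was 2-fold higher or lower. Gins2 and Cdc6 were under it. Of all 5620 genes tested, 0.178% were higher and 0.231% lower. Mcm3 had the largest log2 ratio, 0.37, at 15.6 and 21.6 CPM, followed by Cenpa at 87.4 and 110 CPM (0.31) and Ccnb2 at 55.8 and 67.7 CPM (0.26). Cdc45, a part of the active helicase, was lowest at 17.3 and 14.1 CPM (-0.23), with Tyms, the thymidylate synthase, at 30.3 and 26.1 CPM (-0.18) and Rrm1 at 40.9 and 35.4 CPM (-0.18). The interval of the ratio held 1 for each of these 3. In their dividing cluster the S members were at 1816 and 1624 CPM and the G2/M members at 4420 and 4284 CPM.

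In classical monocyte-like cells every member was higher in the SCD library. S members were at 788 and 1750 CPM, a ratio of 2.22 (2.16 to 2.28), and G2/M members at 1340 and 3597 CPM, a ratio of 2.68 (2.63 to 2.74). Promyelocyte markers were at 270 and 1042 CPM in the class (5 and 6 of 7 above 10 CPM, none at 0) and immature neutrophil markers at 4764 and 8331 CPM (11 and 12 of 12, none at 0), while classical monocyte markers were at 11158 and 10159 CPM. The part of the promyelocyte and neutrophil markers in these levels was not tested. All 40 members passed the minimum level, and 34 were at least 2-fold higher (19 with a pseudocount of 20 CPM, at which the share of all genes was not counted). None was lower, where 2.26% of all 7643 genes tested were higher and 2.03% lower. The median log2 ratio was 1.21 over the members and -0.08 over all genes, and the same scaling would add 0.11 to each. The counting interval of the ratio lay above 1 for each of the 40. Of all 7643 genes, 3147 had a log2 ratio above 0, and their intervals were not counted. Ccnb2 was at 44.0 and 166 CPM (log2 1.81), Cdc20 at 27.3 and 97.6 CPM (1.67) and Cenpa at 87.1 and 268 CPM (1.57). Next came Hmmr, a spindle assembly factor, at 24.3 and 81.1 CPM, and Ube2c, the ubiquitin-conjugating enzyme of the anaphase-promoting complex, at 121 and 364 CPM. The smallest ratios were those of Slbp at 95.7 and 133 CPM (log2 0.45), Pcna at 139 and 205 CPM (0.54) and Mcm4 at 23.4 and 42.5 CPM (0.74, as for Kif23). Pclaf was at 178 and 498 CPM, Mki67 at 175 and 479 CPM and Prc1, a protein that crosslinks the central spindle, at 56.0 and 121 CPM.

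Since dividing cells are chosen by the sum of these members, levels in dividing cells alone are partly fixed by that choice and are not read here. By cluster, which used no member, the levels were as follows. In the mostly dividing cluster the S members were at 3179 and 2894 CPM (ratio 0.910, 0.883 to 0.939) and the G2/M members at 6830 and 6037 CPM (ratio 0.884, 0.866 to 0.903). Its immature neutrophil markers were at 2187 and 2037 CPM and its promyelocyte markers at 1071 and 1577 CPM. In the mostly non-dividing cluster the S members were at 223 and 299 CPM and the G2/M members at 84.6 and 463 CPM, a ratio of 5.47 (4.99 to 6.01). Promyelocyte markers were at 32.7 and 274 CPM in it, and immature neutrophil markers at 2065 and 2601 CPM. The part of these markers in the difference was not tested.

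In cDC1-like cells S and G2/M members differed in opposite directions between the libraries. The S members were at 1378 and 895 CPM, a ratio of 0.650 (0.622 to 0.678), and the G2/M members at 1206 and 1754 CPM, a ratio of 1.45 (1.40 to 1.51). All 40 members passed the minimum level. Each of the 17 S members was lower in the SCD library and for 15 of them the counting interval of the ratio lay below 1. Of the 23 G2/M members 21 were higher, for 18 of them with an interval above 1. All members were counted in the same cells, of which 45 and 37 were dividing, so their intervals are not separate support. Of all 7710 genes tested, 3525 had a log2 ratio above 0, and their intervals were not counted. At the 2-fold limit 2 members, Cdc20 and Cenpf, were higher and none lower, where 0.441% of all 7710 genes tested were higher and 0.467% lower.

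The S members with the lowest ratios in cDC1-like cells were Mcm2, Pcna, Uhrf1 and Mcm3. Mcm2 was at 50.3 and 24.5 CPM (log2 -0.91), Pcna at 190 and 105 CPM (-0.82), Uhrf1, a reader of newly copied methylated DNA, at 53.5 and 28.3 CPM (-0.81) and Mcm3 at 99.2 and 56.1 CPM (-0.77). Mcm5 was at 69.2 and 39.5 CPM and Cdc6 at 25.2 and 13.3 CPM. The nucleotide enzymes lay nearer to equal levels, with Dut at 143 and 100 CPM (-0.49), Rrm1 at 57.8 and 44.9 CPM (-0.33) and Rrm2 at 46.5 and 40 CPM (-0.19). The G2/M members with the highest ratios were Cdc20 at 17.9 and 44.6 CPM (1.12), the kinetochore protein Cenpf at 41.9 and 95.6 CPM (1.10), Hmmr at 19.1 and 42.7 CPM (0.99) and the kinetochore motor Cenpe at 21.0 and 46.6 CPM (0.98). Spc25 and Bub1, of the kinetochore and its checkpoint, were not higher, at 18.9 and 17.4 CPM and at 16.0 and 14.4 CPM. By role, the ratio was 0.626 for the helicase (0.581 to 0.674) and for the clamp and chromatin genes (0.586 to 0.669), 0.737 for nucleotide supply, 1.26 for Mki67 and Top2a, 1.59 for kinetochore and centromere genes, 1.56 for cyclins and kinases, 1.37 for the spindle and 1.79 for Ube2c and Cdc20 (1.60 to 2.01).

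In cDC2-like cells the lists differed in the same directions. S members were at 888 and 656 CPM (ratio 0.738, 0.693 to 0.785) and G2/M members at 941 and 1356 CPM (ratio 1.44, 1.38 to 1.51). Of 15 S members that passed the minimum level, which Cdc45 and Cdc6 did not, 14 were lower, 7 of them with an interval below 1. Of the 23 G2/M members 21 were higher, 13 with an interval above 1. These members were counted in the same cells, of which 108 and 16 were dividing, so their intervals are not separate support. Of all 8189 genes tested, 3504 had a log2 ratio above 0, and their intervals were not counted. At the 2-fold limit 4 members (Cdc20, Ccnb1, Cenpf and Hmmr) were higher and 1 (Rrm2) lower, where 0.415% of all 8189 genes tested were higher and 0.232% lower. The members that were most different were not the same as in cDC1-like cells in every case: Rrm2 was lowest at 30.8 and 10.1 CPM (log2 -1.25, from 376 and 17 UMIs), followed by Tyms at 33.5 and 15.4 CPM (-0.92) and Pclaf at 145 and 81.0 CPM (-0.81). Mcm2 was at 31.1 and 27.2 CPM, with an interval that held 1. Cdc20 was again highest, at 16.0 and 46.1 CPM (1.28), with Ccnb1, the partner of Cdk1, at 14.2 and 40.8 CPM (1.26) and Cenpf at 47.9 and 115 CPM (1.18).

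The dividing cells were also called one at a time at equal depth. Among dividing cDC1-like cells 14 of 45 wild-type cells were G2/M-leaning (31.1%, 18.2 to 46.6) and 23 of 37 SCD cells (62.2%, 44.8 to 77.5), a ratio of 2.00 (1.21 to 3.30). Cells with at least 2/3 S members, called S-leaning, were 46.7% and 24.3%, a ratio of 0.521 (0.273 to 0.997). For cDC2-like cells the G2/M-leaning shares were 39.8% (43 of 108) and 62.5% (10 of 16), a ratio of 1.57 (1.01 to 2.45). Over both classes they were 37.3% (57 of 153) and 62.3% (33 of 53), a ratio of 1.67 (1.25 to 2.24). The S-leaning shares were 33.3% and 25% in cDC2-like cells, a ratio of 0.750 (0.308 to 1.83), and 37.3% and 24.5% over both classes, a ratio of 0.658 (0.393 to 1.10), so these intervals held 1. S members made up 53.3% of the member UMIs of wild-type cDC1-like cells (52.4 to 54.3) and 33.8% in the SCD library (32.9 to 34.7), and 48.5% and 32.6% in cDC2-like cells. Immature neutrophil markers were higher in the SCD library here too, at 327 and 1740 CPM in the dividing cDC1-like cells, with 6 and 10 of 12 markers above 10 CPM and 1 at 0 in each, and at 191 and 1125 CPM in the dividing cDC2-like cells (7 and 8 of 12 above 10 CPM, 1 and 4 at 0). In the dividing cDC1-like cells mature neutrophil markers were at 154 and 1597 CPM (4 of 12 above 10 CPM and 3 at 0 in each), classical monocyte markers at 863 and 1415 CPM and pDC markers at 346 and 637 CPM, while cDC1 markers were at 5112 and 5982 CPM. Promyelocyte markers were at 40.7 and 149 CPM in the dividing cDC1-like cells (1 and 4 of 7 above 10 CPM). In the dividing cDC2-like cells they were at 165 and 103 CPM. The part of the promyelocyte, mature neutrophil, monocyte and pDC markers in the result was not tested. Without the 5 SCD cDC1-like cells at or over 5000 CPM of the immature neutrophil markers, the G2/M-leaning share was 60% (21 of 35), the S share of UMIs 34.8% and the ratio of the S-leaning shares 0.551 (0.289 to 1.05), which held 1.

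**Figure D3:**
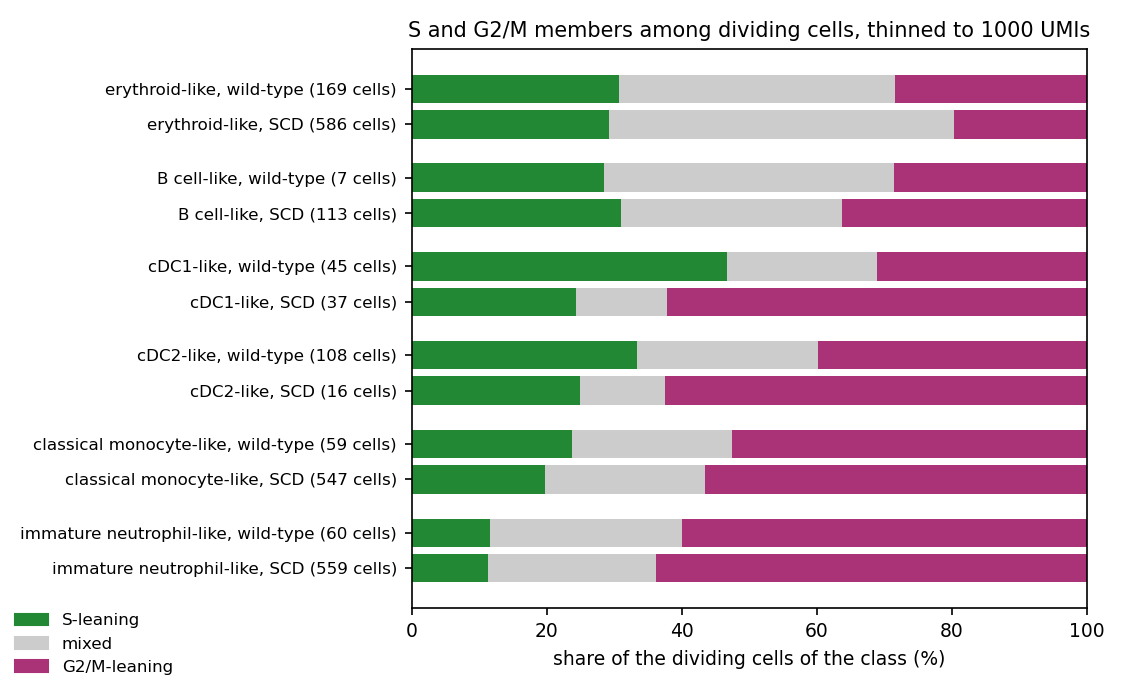
Dividing cells of 6 cell classes split by the share of S members among their member UMIs at 1000 UMIs (x axis, percent of the dividing cells of the class): S-leaning (at least 2/3, green), mixed (grey) and G2/M-leaning (at most 1/3, purple), with the number of dividing cells beside each bar. The purple share is 31.1% in wild-type and 62.2% in SCD cDC1-like cells, and 52.5% and 56.5% in classical monocyte-like cells.

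In mature DC-like cells the lists differed the other way from cDC1-like and cDC2-like cells. The ratio was 1.25 (1.13 to 1.39) for S members and 0.757 (0.646 to 0.883) for G2/M members. None of the clusters of this class alone showed this. In the largest, led by H2-M2 and Il4i1, the ratios were 2.06 (1.80 to 2.35) and 1.05 (0.812 to 1.34). In the one led by Ccl5 and Fscn1, which fell apart at resolution 2, both were lower, at 0.55 and 0.422. In the smallest they were 1.36 (0.979 to 1.88) and 2.07 (1.20 to 3.52). Summed as conventional DCs, cDC1-like, cDC2-like and mature DC-like cells were in different proportions in the libraries, with cDC1-like cells 210 of 2364 wild-type and 230 of 549 SCD cells. In this sum 39 of 40 members passed the minimum level, all but Cdc45. The G2/M members Cenpf, Cenpe, Cenpa, Ccnb1, Hmmr and Cdc20 were at least 2-fold higher in the SCD library and no member was 2-fold lower, where 1.52% of all 8216 genes tested were higher and 2.34% lower. Of the 6, Cenpe and Cenpa reached 2-fold in neither cDC1-like (log2 0.98 and 0.84) nor cDC2-like cells (0.91 and 0.83). With a pseudocount of 20 CPM none of the 6 reached it, and with the limit of 5000 genes 1 (Cdc20) did. At these settings the share of all genes was not counted. Cdc20 was at 14.0 and 41.4 CPM (log2 1.29), Hmmr at 14.0 and 38.3 CPM (1.19) and Cenpf at 39.7 and 92.3 CPM (1.12). Pcna was lowest at 137 and 98.9 CPM (-0.45), then Uhrf1 at 39.5 and 29.8 CPM (-0.36) and Mcm2 at 32.0 and 24.5 CPM (-0.33).

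In pDC-like cells 30 of 40 members passed the minimum level. Of these, 18 were at least 2-fold higher in the SCD library and none was lower. Of all 8113 genes tested, 1.55% were higher and 0.555% lower. The count of 18 became 6 with a pseudocount of 20 CPM, and 34 of 36 passing members with the limit of 5000 genes. The share of all genes was not counted at these settings. With that limit the class also held a cluster with Bcl2 and Ly6d among its leading genes, so the 34 are not of the same class. Without that limit, the members under the minimum level were Gins2, Cdc6, Uhrf1, Cdc45, Bub1, Spc25, Aurka, Aurkb, Plk1 and Ccnb1. Mki67 was at 14.2 and 85.6 CPM (log2 2.23), Pclaf at 14.2 and 76.0 CPM (2.07) and Top2a at 22 and 104 CPM (2.02). The lowest were Mcm4 at 17.1 and 17.3 CPM (0.01), Rrm1 at 27.9 and 32.6 CPM (0.19) and Pcna at 79.1 and 91.9 CPM (0.20). Summed G2/M members were at 162 and 710 CPM, a ratio of 4.39 (4.13 to 4.67). In the main pDC-like cluster, without the small cluster that was high in neutrophil markers, they were at 89.2 and 221 CPM, a ratio of 2.47 (2.23 to 2.74), and the S members at 315 and 454 CPM, a ratio of 1.44 (1.36 to 1.54).

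**Figure D4:**
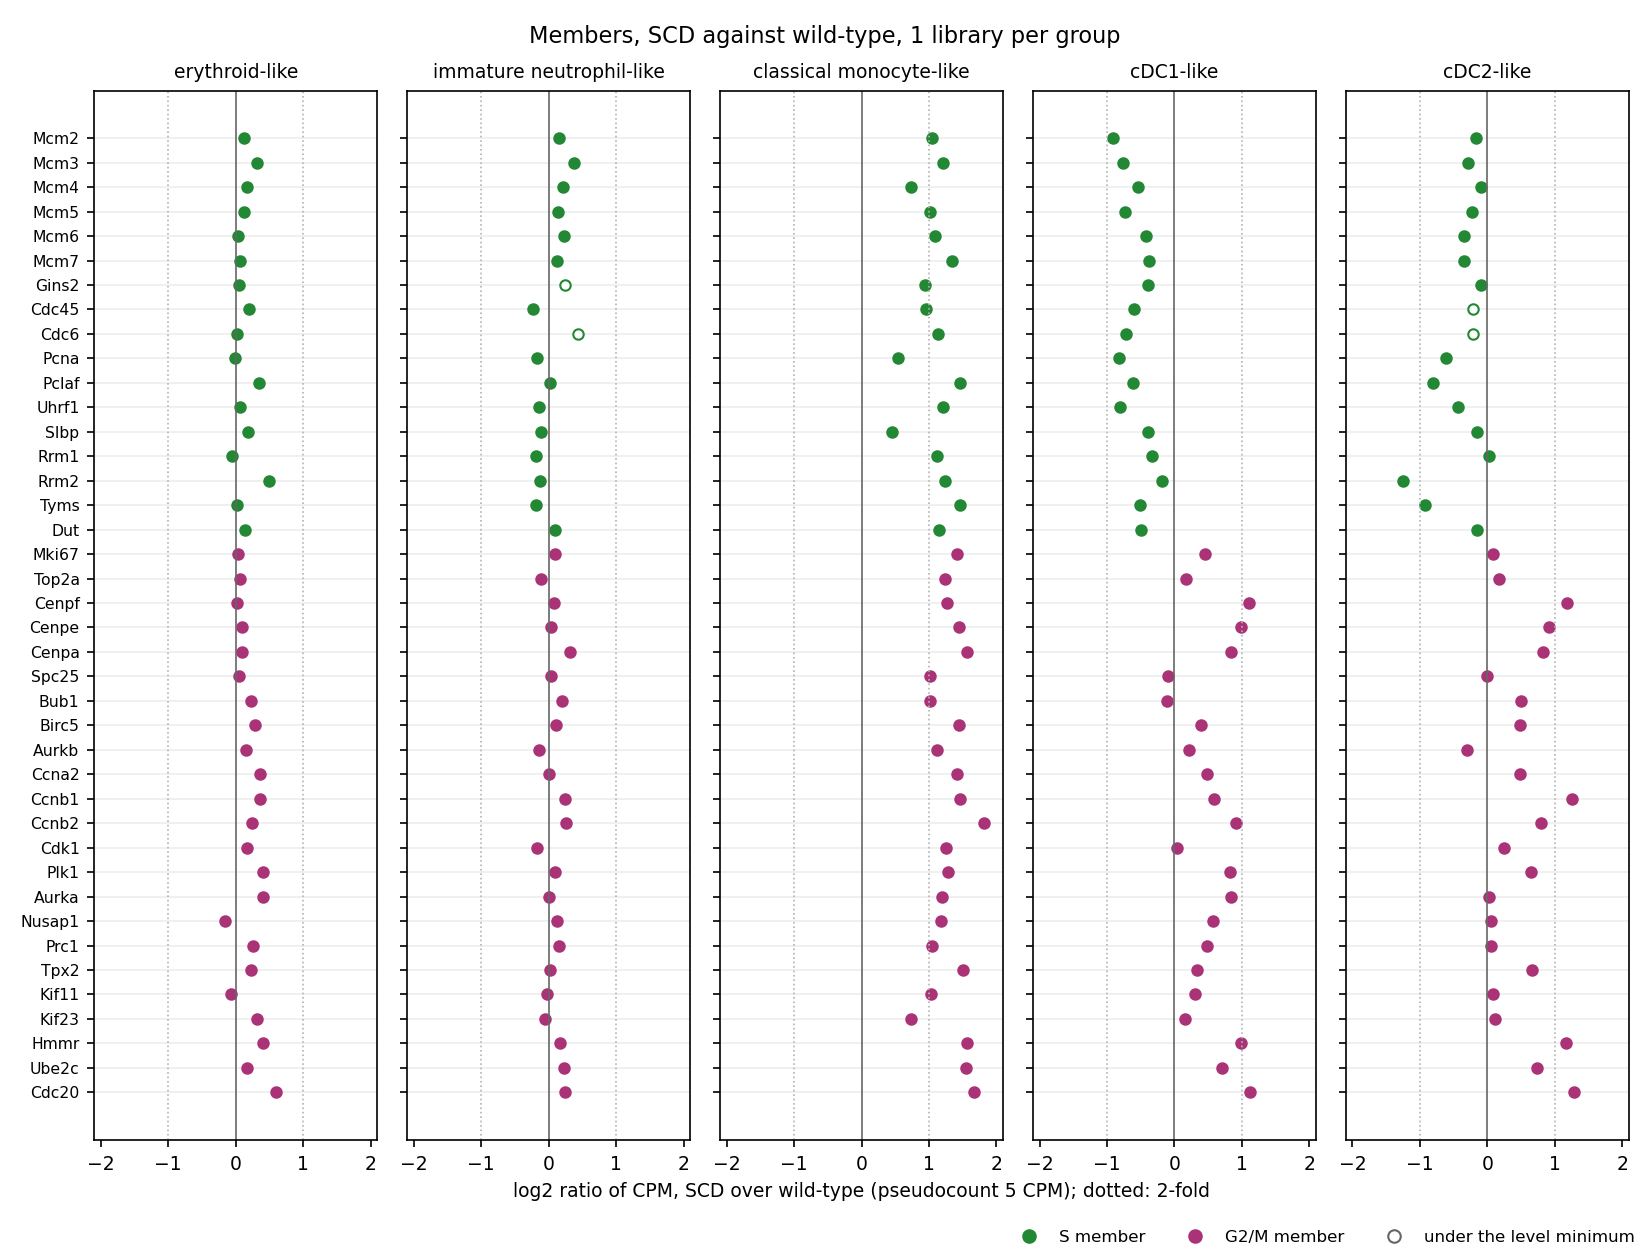
Log2 ratio of each member's level, SCD over wild-type (x axis, pseudocount 5 CPM), in 5 cell classes; green points are S members, purple points G2/M members and open points members under the minimum level, and dotted lines mark 2-fold. All points lie right of 0 in classical monocyte-like cells, while in cDC1-like cells all 17 green points lie left of 0 and 21 of 23 purple points right of it.

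Kif23 made up most of the G2/M member UMIs of wild-type mature neutrophil-like cells. It lies at chr9:61915905-61946774 on the minus strand (GRCm38), and no other annotated gene overlaps it on that strand. In these cells it was at 174 CPM in wild-type (166 to 183, 1649 UMIs) and 51.8 CPM in SCD cells (47.2 to 56.8, 454 UMIs), a ratio of 0.298 (0.268 to 0.330). The other 22 G2/M members together were at 85.4 and 166 CPM. Kif23 thus made up 67.1% of the G2/M member UMIs of wild-type mature neutrophil-like cells and 23.8% of those of SCD cells, against 2.48% and 2.25% in immature neutrophil-like cells. In other cells that hardly divide its share varied in the wild-type library, on fewer UMIs. It was 29.5% (92 UMIs) and 5.45% (6 UMIs) in nonclassical monocyte-like cells, 20.2% and 2.1% in the mostly non-dividing classical monocyte-like cluster, and 24.4% (10 UMIs) and 8.93% in the unnamed cluster led by Retnlg. It was lower, at 9.33% and 3.81%, in the largest immature neutrophil-like cluster and, at 5.15% and 3.80%, in the main pDC-like cluster. At 1000 UMIs it was seen in 15.7% and 6.18% of the cells. Among cells without a UMI of any other G2/M member it was seen in 15.6% and 6.13%, against 0.606% and 0.331% of such immature neutrophil-like cells.

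Different clusters held most mature neutrophil-like cells in the libraries, and Kif23 was given in each. In the cluster led by Il1b, Dusp1 and Fgl2, with 3680 wild-type and 983 SCD cells, it was at 182 CPM (174 to 191) and 125 CPM (110 to 140). In the cluster led by Cstdc4, Retnlg and Stfa2l1, with 128 and 1531 cells, it was at 48.6 CPM (32.3 to 70.2) and 27.3 CPM (23.5 to 31.6). It was lower in the SCD library in both, with ratios of 0.683 (0.599 to 0.777) and 0.563 (0.376 to 0.871), nearer to 1 than the 0.298 of the whole class. Only 6 of the 40 members passed the minimum level in this class. Besides Kif23 these were Slbp at 64.4 and 47.2 CPM, Cenpa at 40.3 and 42.1 CPM, Pcna at 23.2 and 28.4 CPM, Mki67 at 6.23 and 15 CPM and Dut at 6.66 and 24.8 CPM (log2 1.35). At the 2-fold limit 1 was higher (Dut) and 1 lower (Kif23), where 1.66% of all 5528 genes tested were higher and 5.12% lower, and the scaling by the median CPM ratio would add 0.34 to each log2 ratio. Among classes with many dividing cells the level of Kif23 varied. It was at 38.5 and 49.2 CPM in erythroid-like, 41.4 and 40 CPM in immature neutrophil-like and 165 and 131 CPM in B cell-like cells, and at 200 and 157 CPM in the dividing classical monocyte-like cluster. Counting without it left the shares of dividing cells at 0.0797% and 0.0798% in mature neutrophil-like cells and at 5.95% and 20.6% in all cells.

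**Figure D5:**
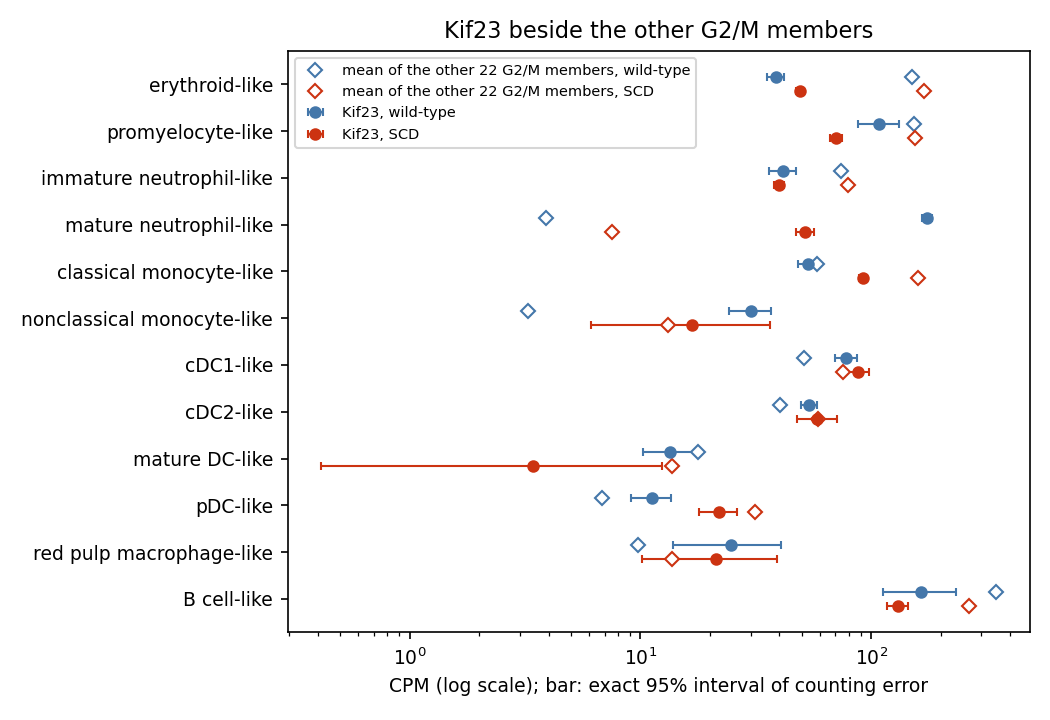
Level of Kif23 (filled points, CPM on a log scale, with exact 95% intervals of counting error) and mean level of the other 22 G2/M members (open diamonds) in each cell class of the wild-type (blue) and SCD library (red). Kif23 is far right of the open diamonds in mature neutrophil-like cells of both libraries and left of them in erythroid-like cells.

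A wider list of 89 other cell cycle genes was described in the same way. In erythroid-like cells 85 of them passed the minimum level. None was 2-fold higher and 1 was 2-fold lower, where 0.435% and 0.449% of all genes tested were. The median log2 ratio of the 85 was 0.10. The lowest were Ccnd1, the D-type cyclin, at 82.1 and 37.9 CPM (log2 -1.02), the inhibitor Cdkn1b at 38.0 and 24.3 CPM (-0.56) and Cdk6, a kinase that binds D-type cyclins, at 373 and 328 CPM (-0.18). The highest were Ccnd3, another D-type cyclin, at 54.5 and 86.4 CPM (0.62), the inhibitor Cdkn2d at 15.3 and 25.2 CPM (0.57) and Ccne1, the cyclin of S phase entry, at 105 and 142 CPM (0.43). In immature neutrophil-like cells 64 passed and the median was -0.02. Of these, 0 were 2-fold different, where 0.178% of all genes tested were higher and 0.231% lower. The lowest were the mitotic kinase Pbk at 33.7 and 24.3 CPM (-0.40), the repressor E2f7 at 12.1 and 8.85 CPM (-0.30) and the checkpoint kinase Ttk at 12.8 and 9.43 CPM (-0.30). The highest were the DNA ligase Lig1 at 30.5 and 39.4 CPM (0.32), the inhibitor Cdkn2c at 20.3 and 25.8 CPM (0.28) and Cep55, which acts in the last step of cytokinesis, at 12.6 and 16.1 CPM (0.26).
In classical monocyte-like cells 39 of 80 passing genes were 2-fold higher and 0 lower (median 0.99), where 2.26% and 2.03% of all genes tested were. In conventional DC-like cells 0 of 70 were higher and 2 lower (median 0.15), where 1.52% and 2.34% of all genes were, a share near the background. In pDC-like cells 4 of 37 were higher and 0 lower (median 0.23), where 1.55% and 0.555% of all genes were.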

How the data were processed

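The matrices deposited by the authors hold raw UMI counts for each cell, made with Cell Ranger and not normalized. The submitters' processing notes name Cell Ranger 4.0.0, Scanpy 1.6.0, Seurat 3.2.3 and GRCm38.p6. Groups came from the labels, with 1 sample each, so no test was run. The members and all gene lists were chosen with earlier results of these data known.

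Kept cells had at least 500 genes, less than 15% mitochondrial counts and less than 30% ribosomal counts, without the study's upper limit of 5000 genes, which removes large dividing cells. Scrublet marked 390 of the kept wild-type and 341 of the kept SCD cells as doublets, which stayed in. Counts were scaled to the median depth and log-transformed. Both libraries were clustered together with no batch correction on 2000 variable genes, leaving out 281 of 15163 genes as cell cycle or histone genes (30 principal components, 15 neighbours, Leiden algorithm at resolution 1). Clusters were named from marker lists by the mean of the 8 best markers each relative to its highest cluster. Names required 3 detected markers, a lead of 0.05 over the next class, a score of the next class under 0.7 and no more markers of another class than its own among the 10 leading genes.

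UMIs were summed per library and class and given as CPM. A gene entered a comparison with at least 20 UMIs over both libraries and a mean of 10 CPM. The log2 ratio used a pseudocount of 5 CPM and was called at 2-fold. This understates ratios of low genes. Shares have exact (Clopper-Pearson) 95% intervals, ratios of shares Katz intervals and ratios of levels conditional binomial intervals, all of counting error only. Intervals of levels and of S shares of UMIs take each UMI as separate. UMIs of the same cell are not separate, so these intervals are too narrow. UMIs of free RNA were not removed. Named genes were, in each of the main classes (erythroid, immature neutrophil, classical monocyte, conventional DC and pDC, but not promyelocyte, with fewer than 50 wild-type cells), the 3 highest and 3 lowest members, the member with most UMIs of each role, and in erythroid and immature neutrophil cells the 3 highest and 3 lowest of the 89 other cycle genes. Others were named after their values were seen.

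Counts of Mcm7, Pclaf, Rrm1, Top2a, Nusap1, Tpx2 and Kif11 could include reads of small or non-coding genes annotated on the same strand, and those of Pcna, Tyms, Ccnb1 and Ccnb2 could be split with their pseudogenes. Alternatives changed the gene limit, the filters, doublets, thinning, the limit for dividing cells, clustering, naming, scaling, pseudocount and members. The calculations were tested on simulated data. Clustering used scanpy 1.11.5, igraph 0.11.9 and leidenalg 0.10.2 under Python 3.11.15, with pandas 2.3.3, scipy 1.17.1 and numpy 2.4.6, and figures used matplotlib 3.10.9.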

Additional observations from a re-analysis of the deposited data

Results flagged for a closer look

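In cDC1-like cells the summed S members had an SCD to wild-type ratio of 0.650, against 2.22 in classical monocyte-like cells. All 17 S members were lower in the first class and higher in the other. Of all genes tested, 3525 of 7710 and 3147 of 7643 had a log2 ratio above 0 in these classes. The difference between the classes was not tested, since each group had 1 library.

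In mature neutrophil-like cells Kif23 had a ratio of 0.298, while the other 22 G2/M members together were at 85.4 CPM in wild-type and 166 CPM in SCD cells. Within the 2 clusters of this class, which the libraries hold in different proportions, the ratio was 0.683 and 0.563. That difference was not tested either.

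Cells removed by the filters also held dividing cells. Of the 277 SCD cells at or over the mitochondrial limit with at least 1000 UMIs, 46.9% were dividing (40.9 to 53.0), and of the 69 such wild-type cells 20.3% (11.6 to 31.7). Among cells at or over the ribosomal limit the shares were 53.9% in the wild-type and 53.2% in the SCD library.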

How the results depend on the processing

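No paired analysis was possible because there was 1 sample per group. No replicate could be left out, and differences between the libraries have no replicate check; at this depth differences in classes with few dividing cells (cDC2-like, pDC-like, B cell-like) were not resolved well. Of 68 alternative ratios of dividing shares 59 moved by less than their counting interval, as did 23 of 45 differences in S share, and 60 of 70 counts of 2-fold members stayed within 1.5 times. Alternatives with new clusters or names also changed which cells a class held. Where values moved, the cause was not tested.

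Ratio of dividing shares, SCD over wild-type: in all cells it was 2.62 without the mitochondrial and ribosomal filters, 3.07 at 3 member UMIs and 3.67 without cells high in neutrophil markers. In erythroid-like cells it was 1.65 with the 5000-gene limit and 1.41 at 6 member UMIs. In classical monocyte-like cells it was 8.13 with cycle genes kept in the clustering, which left 467 and 999 cells in the class, with 1.07% and 8.71% dividing. In conventional DC-like cells (1.25, 0.95 to 1.63) the interval lay above 1 in 4 alternatives. The ratios were 1.51 (1.13 to 2.02) at 2000 UMIs, 1.47 (1.17 to 1.85) at 3 member UMIs, 1.48 (1.11 to 1.98) at resolution 2 and 1.42 (1.10 to 1.83) with cycle genes kept. This class sums cDC1-like, cDC2-like and mature DC-like cells in different proportions. None of these alone had a ratio above 1 with the settings used here. In pDC-like cells it was 11.6 with the gene limit, 12.0 without the filters and 17.9 with cycle genes kept. In these alternatives the class also held a cluster with Bcl2 and Ly6d among its leading genes. With the settings used here the cluster led by these genes stayed unnamed. The ratio was 2.67 (0.978 to 7.30) at resolution 2 and 1.87 (0.634 to 5.54) without cells high in neutrophil markers, both with intervals that hold 1.

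S share of member UMIs, SCD minus wild-type, in percentage points: in all cells (-5.49) it was -11.1 with the gene limit, -5.21 without doublets, -3.12 in dividing cells and -6.10 without Kif23. In erythroid-like cells (-0.564) it reversed to 8.18 with the gene limit and was -0.976 without Dut and Mki67. In immature neutrophil-like cells (-1.50) it was -3.09 in dividing cells and -2.60 at resolution 2. In classical monocyte-like cells (-4.29) it was -7.34 with the gene limit, -3.47 without doublets, -1.07 in dividing cells, -5.72 without Pclaf and Mki67 and -22.2 with cycle genes kept. In conventional DC-like cells (-16.1) it was -12.4 with the gene limit, -18.3 in dividing cells and -17.1 at resolution 2. In pDC-like cells (-23.0) it was -21.1 with the gene limit, -17.3 without doublets, -20.7 without Pcna and Top2a, -2.93 without cells high in neutrophil markers and -7.22 at resolution 2, and reversed to 2.33 in dividing cells.

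Members at least 2-fold higher: the gene limit gave 39 in erythroid-like (0), 1 (Cdc20) in conventional DC-like (6) and 34 in pDC-like cells (18). The share of all genes was not counted under this limit or in the alternatives that follow. A pseudocount of 20 CPM gave 19 in classical monocyte-like (34), 0 in conventional DC-like and 6 in pDC-like cells. Dividing cells alone gave 0 in classical monocyte-like and conventional DC-like cells and 3 in pDC-like cells. In dividing conventional DC-like cells 4 members (Mcm2, Mcm5, Pcna and Uhrf1) were at least 2-fold lower, where no member was in all cells. Dividing cells are chosen by the sum of the members, so these counts are not read here. The conventional DC-like ones also mix 45 cDC1-like, 108 cDC2-like and 56 mature DC-like cells in wild-type with 37, 16 and 7 in SCD.

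The alternative without Kif23 and the one without cells high in neutrophil markers were chosen after seeing the data.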

Other observations

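Dividing cells were also found in clusters that the markers did not name. In a cluster led by Bcl2 and Ly6d, with markers of both pDCs and progenitors, 16.4% of 73 wild-type cells (8.79 to 27) and 66% of 209 SCD cells (59.2 to 72.4) were dividing. Its S members were at 1498 and 3599 CPM and its G2/M members at 2212 and 5478 CPM, so that the S share of member UMIs was 40.4% and 39.7%. In a cluster led by Cd209a, Clec10a and MHC class II genes, with markers of both monocytes and cDC2, 2.42% of 165 wild-type cells (0.664 to 6.09) and 17% of 141 SCD cells (11.2 to 24.3) were dividing. Its S members were at 407 and 864 CPM and its G2/M members at 438 and 2255 CPM, with an S share of 48.2% and 27.7%.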
